A study of Homo sapiens with 10 samples.

Results

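The S100 genes of the 1q21 cluster were examined in H3K27ac peak lists of 2 established HER2 breast cancer cell lines, SKBR3 and MDA-MB-453. The set held 10 genes, S100A10, S100A11, S100A9, S100A8, S100A7, S100A6, S100A4, S100A2, S100A16 and S100A14, out of 19970 protein-coding genes on the chromosomes analysed. Each gene was read in a window of its GENCODE gene body with 10 kb on either side, and every peak that overlapped a window by 1 bp was kept. Peaks of the lists that overlapped each other were merged into regions, and 24 of 76044 regions lay in these windows, 3 of them in the windows of more than 1 member. H3K27ac, the acetylation of lysine 27 of histone H3, marks active promoters and enhancers. Each line had 2 untreated libraries and 2 libraries treated with TWEAK, the cytokine ligand of the receptor Fn14, at 10 ng/ml for 48 h with fresh ligand added at 24 h. All 4 groups were first starved for 8 h in reduced-serum medium. Each group is one cell line in culture, so it holds none of the leukocytes or stroma of a tumour, and the comparison of the lines is a comparison of 2 established lines. Input libraries served the authors for background subtraction.

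S100 proteins are small calcium-binding proteins with a pair of EF-hand motifs. Inside the cell, calcium opens the dimer so that it can bind a target, such as an annexin or a myosin heavy chain, and outside the cell some members act as alarmins on the receptors RAGE and TLR4. Most S100 genes lie on 1q21, on both sides of the epidermal differentiation complex whose products build the outer layer of the skin. The complex lies between S100A11 and S100A9, whose start sites are 1.32 Mb apart. Several members are widely used markers of invasive or inflamed epithelium, breast cancer included. A peak shows acetylated chromatin at a gene and not its RNA or protein.

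The lists held 43684 to 51687 peaks covering 92.1 to 106.0 Mb in SKBR3, and 36148 to 37813 peaks covering 70.5 to 72.1 Mb in MDA-MB-453. Because the lists differ in length and in score, each peak was placed by its percentile within its own list, from 0 for the lowest score to 100 for the highest. Peaks with q under 1e-05 made up 39.4% to 52.6% of SKBR3 lists and 59.8% to 63.8% of MDA-MB-453 lists. A score at that threshold thus ranks higher in SKBR3. At S100A11, score 904 ranked at 99.2 in SKBR3 untreated replicate 1, and score 1968 at 98.9 in MDA-MB-453 untreated replicate 1. The part of this in the line differences was not tested. Read depth is unknown, and a region without a peak may have had signal below the calling threshold. All 7 HER2 and luminal markers (ERBB2, KRT8, KRT18, KRT19, EPCAM, GATA3 and FOXA1) had a peak within 1 kb of their transcription start site (TSS) in all 8 lists. The basal keratins KRT5 and KRT14 had none in any list, and TP63 had one in 4 MDA-MB-453 lists and 1 SKBR3 list. None of the 4 leukocyte and myeloid markers (PTPRC, CD14, LYZ and SPI1) had a TSS peak in any list, so the S100A8 and S100A9 peaks, at genes known best from neutrophils, came without these myeloid marks. Of 3 stromal genes, COL1A1 had a TSS peak in all 8 lists, and PDGFRB and PECAM1 had none.

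The first comparison asked how the 2 lines differ over the cluster. SKBR3 carried a start-site peak at every member, at S100A7 in the TWEAK lists only, while MDA-MB-453 carried strong peaks at S100A11 and at the shared S100A16 and S100A14 region, weak ones at S100A9, S100A10, S100A8 and S100A2, and none at S100A6, S100A4 and S100A7. All 24 regions had a peak in at least 1 SKBR3 list, and 12 were in all 4. In MDA-MB-453, 10 regions had a peak in at least 1 list, and 6 were in all 4. The number of regions in a list was between 13 and 20 in SKBR3 and between 8 and 9 in MDA-MB-453. Of the 24 regions, 2 had a peak in every SKBR3 list and were absent from all of MDA-MB-453, against 14.1% of all regions. None showed the reverse, against 10.5% of all regions.

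Peaks covered 41.2% and 37.9% of the merged windows (217.0 kb in all) in the untreated SKBR3 lists, and 43.6% and 44.3% in the TWEAK lists. In MDA-MB-453 they covered 12.5% and 11.9% without TWEAK and 12.9% and 13.1% with it. Every SKBR3 list thus lay above every MDA-MB-453 list. The mean was 90.5 ± 6.23 kb (SD, n = 4) in SKBR3 and 27.3 ± 1.22 kb (SD, n = 4) in MDA-MB-453, a ratio of 3.31. The same ratio over whole lists, which held 97.7 ± 5.9 and 71.3 ± 0.819 Mb (SD, n = 4 each), was 1.37.

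**Figure D1:**
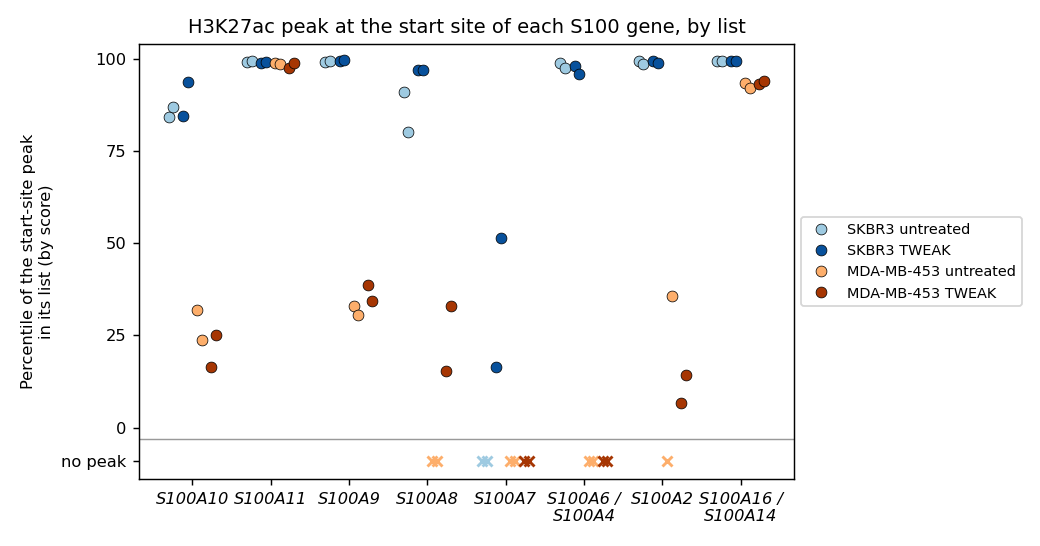
Percentile, within each list, of the highest-scoring peak within 1 kb of the start site of each S100 gene (vertical axis, 0 to 100; crosses below the line mark lists without such a peak). Each point is 1 list, coloured by line and treatment; genes that share 1 peak share a column. The MDA-MB-453 points reach the SKBR3 points at S100A11 only, and S100A6 and S100A4 have crosses in all 4 MDA-MB-453 lists.

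At the start sites themselves, 5 of 10 members (S100A10, S100A11, S100A9, S100A16 and S100A14) had a peak in all 8 lists, against 47.9% of protein-coding genes. S100A6 and S100A4 had one in each SKBR3 list but lacked it throughout MDA-MB-453, against 2.63% of protein-coding genes, and those 2 genes share a single peak. The plot of start-site percentiles shows the order of the members in each line. In SKBR3, S100A9 (99.4 ± 0.222), the S100A16 and S100A14 peak (99.3 ± 0.05), S100A11 (99.1 ± 0.216) and S100A2 (99.1 ± 0.3; SD, n = 4 each) stood at the top of the list, and the ranges of these 4 peaks overlapped or met. The S100A6 and S100A4 peak followed at 97.5 ± 1.24 (SD, n = 4), with a range that reached those of S100A11 and S100A2, then S100A8 at 91.2 ± 7.88 and S100A10 at 87.3 ± 4.34 (SD, n = 4 each). The range of S100A8 overlapped that of both its neighbours in this order. In MDA-MB-453, S100A11 (98.5 ± 0.613) and the S100A16 and S100A14 peak (93.2 ± 0.794; SD, n = 4 each) stood apart from all others. S100A9 came next at 34.1 ± 3.49 and S100A10 at 24.2 ± 6.27 (SD, n = 4 each), whose ranges overlapped, and S100A8 and S100A2 had a peak in 2 and 3 lists only.

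**Figure D2:**
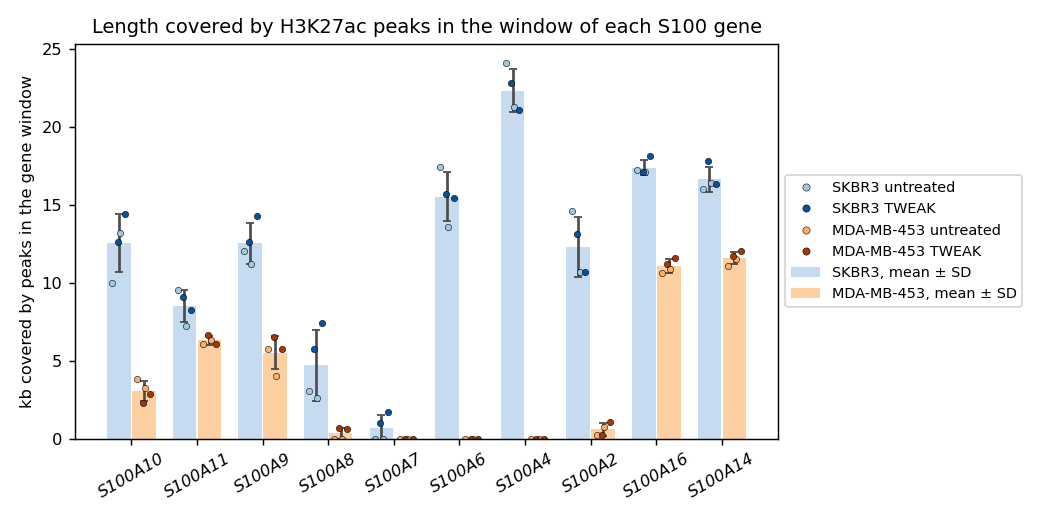
Length covered by H3K27ac peaks (kb, vertical axis) in the window of each S100 gene, the gene body with 10 kb on each side. Bars are the mean of the 4 lists of a line with SD, and points are single lists; windows of neighbours overlap and share peaks. S100A4 has the most covered window in SKBR3 (21.1 to 24.1 kb) and no covered base in MDA-MB-453.

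The line difference was tested where a region had a peak in all 8 lists. That held for 6 of the 24 regions, and limma called 5 of the 6 for rank and 5 of the 6 for width (adjusted p under 0.05, Benjamini-Hochberg over all regions tested). Calls between the lines were common, at 66.9% of all 17704 tested regions for rank and 60.5% for width, so the number called among the members is read against that share. The median rank difference over the 6 regions was 3.77 percentile points, SKBR3 minus MDA-MB-453, and 1.5 over all tested regions. The 18 other regions lacked a peak in at least 1 list and were outside this fit. With absent lists set at percentile 0, limma called 12 of all 24 member regions for rank, where 49.3% of all regions were called.

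S100A6 (calcyclin), S100A4 and S100A2 lie side by side. S100A4 is known for binding non-muscle myosin IIA and for its link to metastasis, and S100A2 is an epithelial member that binds p53. In SKBR3 a merged domain, chr1:153531001-153557753 (hg38), spanned the start sites of S100A6, S100A5, S100A4 and S100A3, as 1 peak in the lists of replicate 1 and as 2 peaks in those of replicate 2. It covered 26.8 and 21.9 kb in the untreated lists and 24.8 and 23.2 kb in the TWEAK lists. Its percentile was 98.8 and 98.4 without TWEAK and 98.1 and 95.9 with it. No MDA-MB-453 list had a peak there, and the stretch without any MDA-MB-453 peak ran for 43.8 kb, chr1:153521727-153565558. The peak over the S100A6 and S100A4 start sites was among the widest of its list, at a width percentile of 99.5 to 99.8 in the 4 SKBR3 lists. Its fold enrichment over input was 17.7 and 18.2 without TWEAK and 19.7 and 13.2 with it, so the treated pair lies on both sides of the untreated pair. Its presence in SKBR3 alone held under all 12 alternatives that kept the 10 kb windows. Those that left out 1 library could not remove it, since fewer lists make the rule easier to meet.

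**Figure D3:**
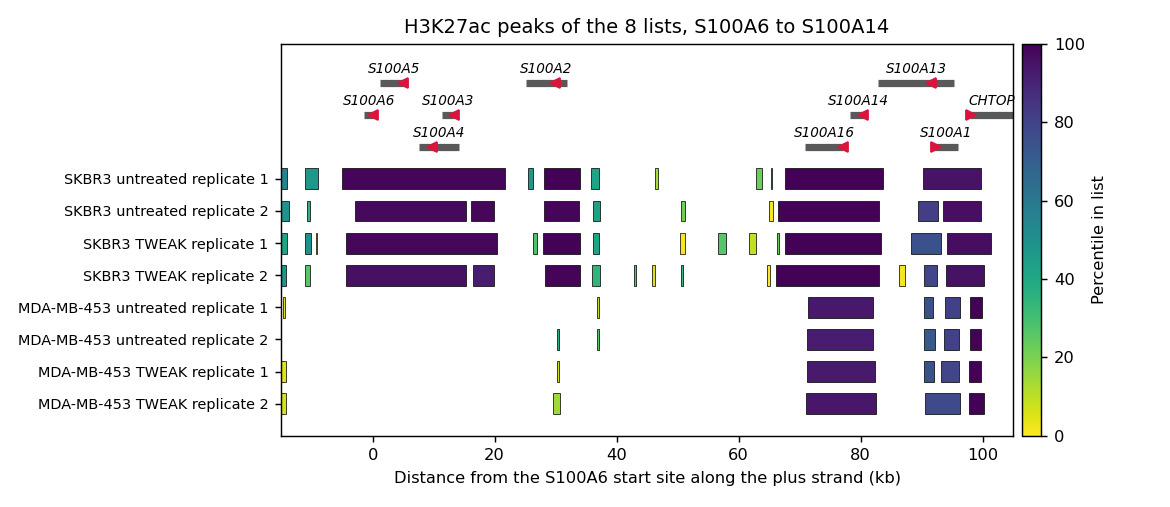
Peaks of the 8 lists from S100A6 to S100A14, drawn by distance from the S100A6 start site along the plus strand (kb, horizontal axis), 1 row per list, coloured by percentile in the list. Grey bars are gene bodies and red arrowheads start sites with their direction. The SKBR3 domain over S100A6, S100A5, S100A4 and S100A3 is empty in MDA-MB-453, whereas the S100A16 and S100A14 region is filled in all 8 rows.

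A second region was also found in SKBR3 alone, at chr1:153524940-153527091, 8.9 kb downstream of the S100A6 start site and outside any gene. It was much weaker, with percentiles of 46.8 and 35.9 without TWEAK and 49.5 and 26.2 with it, and it no longer met the rule with q under 1e-05, with lists of equal size or with the cover of 50% of the region required.

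At S100A2 all 4 SKBR3 lists had a peak of 5.75 to 6.12 kb at percentiles between 98.7 and 99.3, with a fold enrichment of 15.8 to 20.5. MDA-MB-453 had no S100A2 peak in untreated replicate 1 and small ones in the others, at percentile 35.7 in the second untreated list and at 6.68 and 14.2 in the TWEAK lists. Their widths were 0.448, 0.246 and 1.09 kb. The region at chr1:153571727-153573329, at -5.88 kb from the S100A2 start site (negative values lie upstream), was in all 4 SKBR3 lists at percentiles of 34.7 to 42.7. It was in both untreated MDA-MB-453 lists, at 10.1 and 25.8, and in neither TWEAK list. That made it the 1 region lost with TWEAK in MDA-MB-453, against 1.31% of the regions of that line. The call did not hold with q under 1e-05 or with the cover of 50% of the region required.

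S100A10 and S100A11 are the annexin partners of the set. S100A10 (p11) forms a tetramer with annexin A2 at the plasma membrane, where it takes part in plasmin generation, and S100A11 binds annexin A1. At S100A10 the start-site region, chr1:151986905-152000223, ranked at 84.3 and 87.0 without TWEAK and 84.5 and 93.6 with it in SKBR3. In MDA-MB-453 it ranked at 31.8 and 23.7 without TWEAK and 23.2 and 27.1 with it. The lines did not overlap, and the difference of 60.89 percentile points (SE 3.78) had an adjusted p of 6.06e-06 in limma. Peaks covered 9.4 to 13.3 kb of it in SKBR3 and 1.95 to 3.71 kb in MDA-MB-453, a log2 difference of 2.03 (SE 0.15, adjusted p = 4.28e-05). Further downstream, at 20.1 kb from the start site, chr1:151970990-151973781 was in all 4 SKBR3 lists (percentiles 49.8 to 67.1) and in 2 MDA-MB-453 lists (17.4 and 3.62).

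S100A11 was the member at which the lines were closest. Its start-site peak, chr1:152033382-152037498, ranked at 99.2, 99.3, 98.8 and 99.1 in SKBR3 and at 98.9, 98.5, 97.6 and 98.9 in MDA-MB-453, in the order untreated then TWEAK. The fold enrichment was 18.9 to 24.5 in SKBR3 and 18.7 to 25.8 in MDA-MB-453. The rank difference of 0.65 points (SE 0.42) did not pass (adjusted p = 0.203), nor did the width difference of 0.11 on the log2 scale (SE 0.08, adjusted p = 0.252). When peaks were ranked by fold enrichment in place of score, the difference did pass (1.985 points, adjusted p = 0.0199), as it did for log2 fold enrichment (0.3306, adjusted p = 0.00887).
A second S100A11 peak lay at -8.73 kb from that start site, at the 5′ end of the annotated gene, chr1:152045730-152049591. It ranked between 99.3 and 99.8 in SKBR3 and between 98.0 and 98.5 in MDA-MB-453, without overlap. The difference was 1.4 points (SE 0.35, adjusted p = 0.00782), and its width was 3.53 ± 0.117 kb against 2.66 ± 0.144 kb (SD, n = 4 each; adjusted p = 0.00533). The rank call was lost without a mean-variance trend (adjusted p = 0.288) and with absent regions set at percentile 0 (adjusted p = 0.0796).

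S100A16 and S100A14 are widely expressed epithelial members whose start sites are 3.19 kb apart, and 1 region, chr1:153602201-153619599, held both. In SKBR3 it stood at percentile 99.3 and 99.4 before treatment and at 99.3 in both TWEAK lists. In MDA-MB-453 it was 93.4 and 92.1 without TWEAK and 93.1 and 94.0 with it. SKBR3 was higher by 6.14 points (SE 0.52, adjusted p = 2.27e-05) and wider by 0.56 on the log2 scale (SE 0.05, adjusted p = 7.01e-05), with 16.3 ± 0.411 against 11.1 ± 0.419 kb covered (SD, n = 4 each). The next region, chr1:153624218-153637456, reached into the S100A14 window but held the start sites of S100A13, S100A1 and CHTOP. It was the 1 member region that ranked lower in SKBR3, at 95.8 ± 0.661 against 99.4 ± 0.116 (SD, n = 4 each), a difference of -3.58 points (SE 0.47, adjusted p = 0.000231). In MDA-MB-453 its highest peak lay over the CHTOP start site, while the peak at the S100A13 start site averaged percentile 75.2 there and 82.8 in SKBR3. The covered length of the same region was greater in SKBR3, by 0.56 on the log2 scale (SE 0.13, adjusted p = 0.00877).

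S100A9 and S100A8 encode the subunits of calprotectin, a heterodimer that binds calcium and zinc and is secreted during inflammation, and S100A7 (psoriasin) is a chemotactic member first known from psoriatic skin and found in breast carcinoma. They are the members looked at most closely for TWEAK below, so the 250 bases upstream of each are shown from RefSeq (GRCh38.p14), 5′ to 3′ on the strand of the gene, with the TATA box TATAAA in capitals. S100A9 is on the plus strand at chr1:153357604-153357853, S100A8 on the minus strand at chr1:153391074-153391323 and S100A7 on the minus strand at chr1:153460652-153460901.
S100A9: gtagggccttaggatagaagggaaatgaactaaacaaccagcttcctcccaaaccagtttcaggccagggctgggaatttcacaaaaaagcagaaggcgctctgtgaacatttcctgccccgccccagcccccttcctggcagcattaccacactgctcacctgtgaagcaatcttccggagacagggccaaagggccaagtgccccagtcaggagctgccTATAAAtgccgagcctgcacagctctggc
S100A8: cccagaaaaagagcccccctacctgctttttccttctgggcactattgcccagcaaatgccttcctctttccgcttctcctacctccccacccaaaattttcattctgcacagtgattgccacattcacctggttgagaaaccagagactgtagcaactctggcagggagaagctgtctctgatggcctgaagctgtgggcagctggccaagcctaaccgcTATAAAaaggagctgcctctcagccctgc
S100A7: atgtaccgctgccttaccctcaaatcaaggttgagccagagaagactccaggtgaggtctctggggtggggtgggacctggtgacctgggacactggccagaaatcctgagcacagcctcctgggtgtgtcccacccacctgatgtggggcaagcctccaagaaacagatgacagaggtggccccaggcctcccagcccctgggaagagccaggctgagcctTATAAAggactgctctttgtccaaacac
The TATA box began at position -29 from the start site in S100A9, -29 in S100A8 and -28 in S100A7. S100A4 held one as well, at -31, and the 6 other members held none. All 10 members matched a RefSeq promoter at this start site, and TATAAA on the strand of the gene was present in 7.33% of all 35116 promoters of 300 bases (250 before and 50 after the start).

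The S100A9 region, chr1:153355045-153368292, ranked at 99.2 and 99.3 in the untreated lists of SKBR3 and at 99.5 and 99.7 in the treated ones, where 1 peak of 11.2 to 13.2 kb ran over the gene and beyond its 3′ end. In MDA-MB-453 the same region was broken, chiefly into a start-site peak and a downstream peak that began 5.62 to 5.91 kb from the start site. The start-site peak ranked at 32.9 and 30.5 without TWEAK and 38.8 and 34.4 with it. The downstream peak set the rank of the whole region, 75.1 and 76.2 without TWEAK and 80.3 and 84.6 with it. Between the lines the region differed by 20.38 points (SE 1.15, adjusted p = 4.8e-06) and by 1.17 in log2 covered length (SE 0.12, adjusted p = 0.0002).

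**Figure D4:**
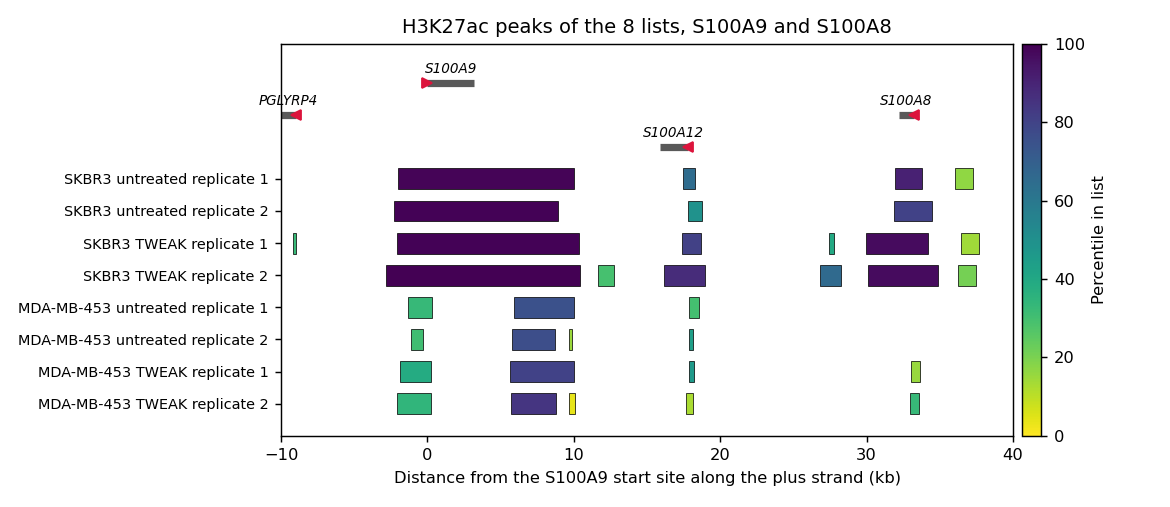
Peaks of the 8 lists around S100A9 and S100A8, drawn by distance from the S100A9 start site along the plus strand (kb, horizontal axis), 1 row per list, coloured by percentile in the list. Grey bars are gene bodies and red arrowheads start sites with their direction. The S100A8 peak is wider in the 2 SKBR3 TWEAK rows than in the 2 untreated rows, and it is drawn in the 2 TWEAK rows but in no untreated row of MDA-MB-453.

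The next comparison asked what TWEAK did to the members in each line. At S100A8, chr1:153387806-153392704, the SKBR3 peak ranked at 90.9 and 80.2 without treatment and at 96.9 in both TWEAK lists. The fold enrichment was 8.19 and 7.06 without TWEAK and 14.6 and 13.7 with it, and the width 1.82 and 2.6 kb without TWEAK and 4.21 and 4.76 kb with it. Both treated lists were above both untreated lists on all 3 measures. Across all 30481 regions of the fit, limma did not call the rank difference of 11.39 points (SE 3.16, unadjusted p = 0.00673, adjusted p = 0.33) or the log2 width difference of 1.04 (SE 0.23, unadjusted p = 0.00823, adjusted p = 0.52). Without SKBR3 untreated replicate 1, the list with the higher untreated percentile, the rank difference was 16.76 points. In that fit the lone untreated list is taken to vary like the treated pair. With a replicate block the difference passed in limma (11.39 points, SE 1.92, adjusted p = 0.00226). The block raised the number of calls over all regions as well, as given below. None of the 11 other alternatives called the difference.

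In MDA-MB-453, S100A8 had no peak in either untreated list and a narrow one over the start site in both TWEAK lists, 0.664 and 0.631 kb wide at percentiles of 15.3 and 33.0. The fold enrichment of these peaks was 3.07 and 3.74. This was the 1 member region gained with TWEAK in that line, where 1.27% of the regions were gained, and the 1 member whose start-site peak was gained, against 0.25% of protein-coding genes. The peaks were weak, and the gain did not hold with q under 1e-05 or with the cover of 50% of the region required. In SKBR3 both treated lists thus ranked higher and were wider at S100A8, a difference that did not pass the test. Such a separation occurred at 20.9% of all tested SKBR3 regions for rank and 20.7% for width. In MDA-MB-453 only the treated lists had a called peak. The untreated lists there hold no value, and their signal may lie below the calling threshold. With absent lists set at percentile 0, limma did not call the MDA-MB-453 difference either (24.12 points, SE 7.21, adjusted p = 0.67).

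In SKBR3, 2 member regions were gained with TWEAK and 0 were lost, against 4.64% and 1.39% of the regions of that line. The first lay 3.91 kb beyond the 3′ end of S100A8, between S100A12 and S100A8, at chr1:153384659-153386120. It was absent from both untreated lists and had percentiles of 39.7 and 66.0 after TWEAK, with widths of 0.331 and 1.46 kb. The second held the S100A7 start site, chr1:153460314-153462068. It was absent from both untreated lists and had percentiles of 16.4 and 51.5 after TWEAK, with fold enrichments of 2.89 and 3.89 and widths of 0.985 and 1.73 kb. S100A7 was the 1 member whose start-site peak was gained in SKBR3, against 0.315% of protein-coding genes, and no MDA-MB-453 list had a peak in its window. Both gains were lost with q under 1e-05. The S100A7 gain was also lost with lists of equal size, and the gain beside S100A8 with the cover of 50% of the region required. In all 3 regions with a gain, TWEAK replicate 2 had the higher percentile, and in SKBR3 that library had the longest list (51687 peaks against 43684 to 45371), a difference whose part in the gains was not tested.

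**Figure D5:**
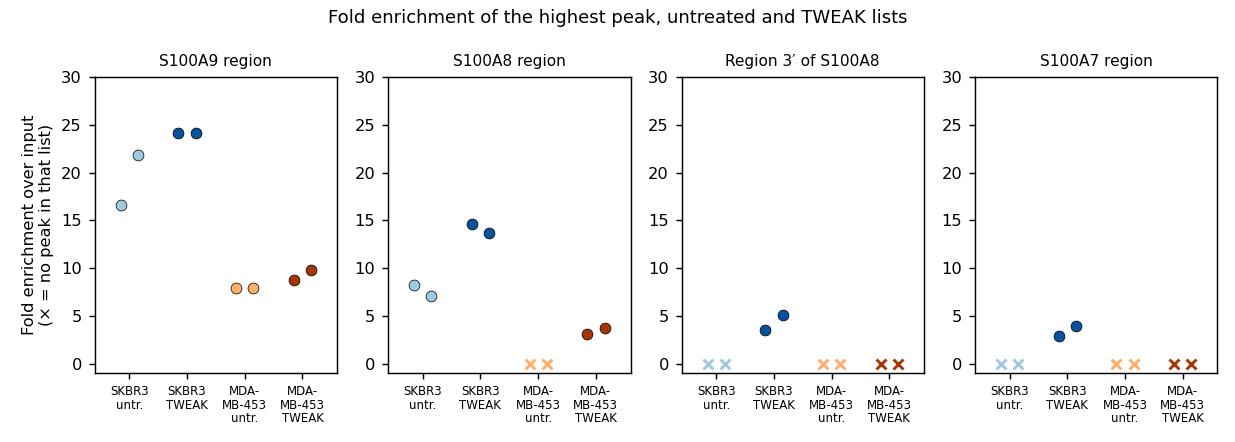
Largest fold enrichment over input (vertical axis) of any peak in each of 4 regions, 1 point per list by line and treatment. Crosses at 0 mark lists without a peak. At S100A8 the SKBR3 TWEAK points (14.6 and 13.7) lie above the untreated points (8.19 and 7.06), and the region 3′ of S100A8 and the S100A7 region have points in the 2 SKBR3 TWEAK lists only. At S100A9 the MDA-MB-453 points belong to the peak downstream of the gene.

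S100A9 itself moved little in rank in SKBR3, where its untreated percentiles of 99.2 and 99.3 left little room to rise. Its SKBR3 difference with TWEAK was 0.39 points (SE 0.85, adjusted p = 0.945). Its fold enrichment was 16.6 and 21.8 without TWEAK and 24.2 in both TWEAK lists. In MDA-MB-453 the region differed by 6.81 points (SE 1.91, unadjusted p = 0.00848, adjusted p = 0.51). S100A12 (calgranulin C) lies between S100A9 and S100A8 and is no member, and it is named here after its values were seen. Its start-site peak in SKBR3 ranked at 65.0 and 49.3 without treatment and at 80.8 and 87.6 after TWEAK. The treated lists were above the untreated ones, as they were at 20.9% of all tested SKBR3 regions. limma did not call S100A12 with TWEAK. In MDA-MB-453 its percentiles were 29.7 and 43.8 without TWEAK and 45.9 and 12.8 with it, which overlap.

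Over all member regions, limma called 0 of 12 regions for rank and 0 of 12 for width with TWEAK in SKBR3, where 0.0% of all tested regions were called on either measure. In MDA-MB-453 it called 0 of 6 on each, where 0.00335% of all regions were called for rank and 0.0% for width. At an unadjusted p under 0.05 there was 1 of 12 for each measure in SKBR3, S100A8 both times, against 8.33% of all regions for rank and 7.4% for width. In MDA-MB-453 there was 1 of 6 for each measure, S100A9 for rank and S100A10 for width, against 7.75% and 5.97%. The S100A10 region covered 3.71 and 3.21 kb without TWEAK and 1.95 and 2.84 kb with it (log2 difference -0.55, SE 0.2, adjusted p = 0.828). Both treated percentiles exceeded both untreated ones at 3 of 12 regions in SKBR3 (upstream S100A11, S100A9 and S100A8), against 20.9% of all tested regions. Both were below at 3 of 12 (the S100A11 start site, the S100A6 and S100A4 domain and the region upstream of S100A2), against 17.3%. Covered length was greater in both treated lists at 3 of 12 regions (the S100A11 start site, S100A9 and S100A8), against 20.7%. In MDA-MB-453 both treated percentiles were higher at 2 of 6 regions (upstream S100A11 and S100A9), against 20.6%. Covered length in MDA-MB-453 was greater in both treated lists at 3 of 6 regions (S100A9, S100A16 with S100A14, and the CHTOP region), against 18.1%, and smaller at 1 of 6 (S100A10), against 17.2%. No region was narrower in both treated lists of SKBR3, against 15.7%, and none ranked lower in both treated lists of MDA-MB-453, against 17.8%. Few regions stand behind each of these counts.

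Whether TWEAK acted differently in the 2 lines was tested with the interaction term at the 6 regions in all lists. None was called for rank or for width by limma, where 0.0% of all regions were called on either, and at an unadjusted p under 0.05 there was 1 of 6 on each. For rank it was the S100A9 region (-6.42 points, SKBR3 minus MDA-MB-453, SE 2.3, adjusted p = 0.583), and for width the S100A10 region (0.78 on the log2 scale, SE 0.3, adjusted p = 0.662). Untreated S100A9 stood at percentiles 99.2 and 99.3 in SKBR3, on a scale that ends at 100. A rise as large as the 6.81 points in MDA-MB-453 could not show there in rank. S100A8 and S100A7 lacked a peak in some lists and entered the test only with absent lists set at percentile 0. In that fit limma called 0 of 24 member regions, where 0.692% of all regions were called, and 2 of 24 had an unadjusted p under 0.05, where 10.2% of all regions did. The interaction was -12.73 points at S100A8 (SE 9.10, adjusted p = 0.687) and 33.97 at S100A7 (SE 15.39, adjusted p = 0.575).

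NF-κB and AP-1 are transcription factor families that TWEAK signalling is known to engage, so both strands of the regions and promoters were searched for their motifs. The region 3′ of S100A8 held 1 match to the NF-κB motif and the S100A8 region held 2. Each is shown on the plus strand with its match in capitals and 10 bases on either side, the first at chr1:153385110-153385139, outside any gene, the second at chr1:153390447-153390476, in the coding sequence of S100A8, and the third at chr1:153390567-153390596, in its intron.
Region 3′ of S100A8: tagatcacagGGGAATTTCCaaatctaaga
S100A8, coding sequence: tagacggcatGGAAATTCCCctttatcagg
S100A8, intron: agaaccttctGGGGAATCCCatggcaggga
For comparison, a window of the same length was centred on the midpoint of every region, so shorter regions were extended into their flanks. An NF-κB match was present in 18.3% of windows of 1462 bp, the length of the first region. It was present in 41.2% of windows at the 4899 bp of the S100A8 region. Neither region held the AP-1 motif (TGAGTCA or TGACTCA), which was in 29.3% and 59.4% of windows of these lengths. The S100A7 region held neither motif. The S100A6 and S100A4 domain held 13 AP-1 and 5 NF-κB matches. In windows of its length of 26753 bp an AP-1 match was present in 98.6% and an NF-κB match in 88.8%. Among the 10 promoters of 300 bases, S100A2 alone held AP-1, against 4.95% of all promoters, at -52 from its start site and within an intron of a longer annotated S100A2 transcript. It is shown on the minus strand, chr1:153565880-153565906, with the motif in capitals and 10 bases on either side.
S100A2: gagtgggctgTGACTCAcaggcatgtc
S100A14 alone held an NF-κB match, at -202 from its start site, against 5.91% of all promoters. The members' promoters had between 52.3% and 71.7% G and C, highest at S100A10 and lowest at S100A8.

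The 12 regions in all 4 SKBR3 lists are described above. Of the others, 6 were each in 1 list only, all of them SKBR3 lists and none above percentile 46.8: they lay upstream of S100A10 (14.9 in TWEAK replicate 2), at PGLYRP4 in the S100A9 window (32.5 in TWEAK replicate 1), downstream of S100A9 (29.3 in TWEAK replicate 2), within S100A2 (46.8 in untreated replicate 1 and 28.0 in TWEAK replicate 1) and upstream of S100A14 (1.54 in TWEAK replicate 2). A region 5.47 kb downstream of the S100A11 start site was in 3 SKBR3 lists, at 60.9 in untreated replicate 1 and 60.7 and 32.2 after TWEAK. One at -2.81 kb from the S100A8 start site was in 3 SKBR3 lists as well, with fold enrichments of 2.8 in untreated replicate 1 and 2.97 and 3.05 after TWEAK. In the S100A16 window a region was in 2 SKBR3 lists (22.4 and 9.13) and another in 3 (27.5, 1.1 and 0.519).

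The other S100 genes of 1q21 were described in the same way. Of 7, S100A12, S100A13 and S100A1 had a start-site peak in all 8 lists, S100A3, S100A5 and S100A7A in SKBR3 only and S100A7L2, a pseudogene in the annotation used, in none. S100A3 and S100A5 lie in the S100A6 and S100A4 domain and share its percentiles. S100A7A, the close relative of S100A7, had a peak at percentile 37.5 in 1 untreated SKBR3 list and at 53.7 and 67.9 after TWEAK. Among the 3 tested by line, the region was higher in SKBR3 at 1 and lower at 2, which are S100A13 and S100A1 in the region shared with CHTOP. Of all regions tested by line, 38.4% were higher in SKBR3 and 28.5% lower. Elsewhere in the genome S100P had a peak in all 8 lists, at 97.2 in SKBR3 and 68.1 in MDA-MB-453 on average, and its region ranked higher in SKBR3. S100B, S100G and S100Z had none.

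Partners and receptors of S100 proteins were mixed. Of 7 genes, 4 had a start-site peak in all 8 lists and were tested by line. Of these, 2 were higher in SKBR3 and 2 lower, against 38.4% and 28.5% of all tested regions. ANXA11, an annexin that binds S100A6, ranked between 92.5 and 95.0 in SKBR3 and between 8.2 and 23.9 in MDA-MB-453. ANXA2, the partner of S100A10, ranked between 75.2 and 82.8 in SKBR3 and between 97.1 and 98.7 in MDA-MB-453. AHNAK, a scaffold protein bound by the complex of S100A10 and annexin A2, ranked at 72.8 in SKBR3 and 57.0 in MDA-MB-453 on average. ANXA1, the partner of S100A11, had a start-site peak gained with TWEAK in SKBR3, at percentiles of 9.13 and 29.3. It was the 1 gain among the 7 genes, against 0.315% of protein-coding genes. Its peaks ranked low, and the higher percentile was again in TWEAK replicate 2, the longest SKBR3 list. TLR4 had no peak in any list, and AGER, which encodes RAGE, had one in 1 SKBR3 list.

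Start-site peaks were few among the genes read in the epidermal differentiation complex, between S100A11 and S100A9. Acetylation away from those start sites was not measured over the complex. Of 14 genes, 11 had no start-site peak in any list and 3 had one in SKBR3 only, with none in MDA-MB-453. Thus none had one in all 8 lists, against 47.9% of protein-coding genes. IVL (involucrin, a cornified envelope protein) ranked between 95.4 and 97.7 in all 4 SKBR3 lists, and SPRR3 (7.91) and PGLYRP4 (32.5) had a peak in 1 list each. Among 13 genes flanking the cluster, 10 had a start-site peak in all 8 lists. Of these, 3 were higher and 4 lower in SKBR3 by the rank of their region, against 38.4% and 28.5% of all tested regions. The largest differences were at THEM4 (82.4 in SKBR3 and 14.3 in MDA-MB-453 on average), TDRKH (25.6 and 59.0) and SLC27A3 (46.5 and 65.1). The median of the 10 differences in start-site percentile was -1.4 points, SKBR3 minus MDA-MB-453.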

How the data were processed

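H3K27ac ChIP-seq peak lists of 8 libraries were analysed: 2 untreated and 2 TWEAK libraries of SKBR3 and of MDA-MB-453, which the study describes as biological replicates. The 2 input samples were not analysed here. The authors trimmed reads with Trimmomatic, aligned them to hg38 by Bowtie2, ran MACS2 on every library against its input, and removed blacklisted regions with bedtools. Versions and calling options were not given in the sources used here. The deposited lists give a whole-number score for each peak, a fold enrichment (a ratio over input), and p-values and q-values as their −log10, and the 9 columns without a summit match the broad layout of MACS2. The score is 10 times the −log10 q rounded down, save for 97 of 334329 peaks (no score is more than 1.0 away from 10 times the −log10 q), and the lowest −log10 q in the deposited lists is 1.0. Read counts were not used, so depth is unknown and no counting interval can be given.

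Peaks of the 8 lists on chromosomes 1 to 22 and X were merged where they overlapped by 1 bp. A region took the highest score percentile among its peaks in a list and the length they covered. Regions were called gained with both TWEAK lists and neither untreated list, lost with the reverse, and only in a line with all 4 lists of it and none of the other. Rank and log2 covered length were tested with limma 3.58.1 in R 4.3.3 (trend, two-sided, Benjamini-Hochberg over all regions tested, threshold 0.05), over all 4 groups between lines and over the 4 lists of a line for TWEAK, and the fit was tested on simulated data. With 2 lists against 2 no permutation test can reach that threshold.

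Genes and start sites (MANE Select, else Ensembl canonical) came from GENCODE release 44. All members were named by their start-site peak within 1 kb. Regions were named when called, at a member start site or in all 4 lists of a line, and genes of the other lists by the 3 largest differences between lines or a TWEAK call. Further regions and S100A12 were named after their values were seen. The NF-κB motif was the degenerate 10-base consensus. The members, gene lists and tests were chosen with earlier results of these data known. Alternatives were q under 1e-05, lists of equal size, merging within 1 kb, windows of 25 and 1 kb, 50% cover, other rank and width measures, no trend, a replicate block and leaving out each library. Merging within a line was added after the data were seen. Python 3.11.15 with pandas 2.3.3 and matplotlib 3.10.9 was used.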

Additional observations from a re-analysis of the deposited data

How the results depend on the processing

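Of 228 counts compared over 21 alternatives, 204 stayed within 1.5 times the reported count and 24 moved. Many of the 204 had little room to move. They include TWEAK counts of 1 line when a library of the other line was left out. They also include counts of 0 from TWEAK fits that called no region or almost none anywhere. Regions found in SKBR3 alone numbered 2, and 4 with q under 1e-05, 1 with lists of equal size, 1 with windows of 1 kb and 5 with the cover of 50% of the region required. Regions found in MDA-MB-453 alone numbered 0, and 1 with windows of 25 kb. Gains in SKBR3 numbered 2, and 0 with q under 1e-05 and 1 each with lists of equal size, windows of 1 kb and 50% cover. The 1 gain in MDA-MB-453 became 0 with q under 1e-05 and with 50% cover, and the 1 loss there became 0 under both and with windows of 1 kb. A stricter q removes the weak peaks by construction, and otherwise the cause was not tested. The calls by line for rank, 5 of 6 regions, became 12 of 24 when absent regions were set at percentile 0, which lets regions missing from a line enter the fit, and 49.3% of all regions were called there.

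Leaving out 1 library at a time gave 2 to 4 regions in SKBR3 alone (4 without SKBR3 untreated replicate 2, 3 without TWEAK replicate 1), 2 to 5 gains in SKBR3 (5 without TWEAK replicate 1, 4 without TWEAK replicate 2 or untreated replicate 1) and 0 to 2 losses in SKBR3 (2 without untreated replicate 2, 1 without TWEAK replicate 2). In MDA-MB-453 it gave 1 to 2 gains (2 without untreated replicate 2). Without SKBR3 untreated replicate 1, which leaves 1 untreated list, the S100A8 rank difference with TWEAK in SKBR3 was 16.76 points. Fewer lists make presence rules easier to meet, and these counts rose over all regions as well. Gains in SKBR3 over all regions were 2832 of 61061 with every list and 10457 of 59492 without TWEAK replicate 1. They were 5489 of 54496 without TWEAK replicate 2 and 4496 of 57464 without untreated replicate 1. Losses there were 846 of 61061 with every list and 5700 of 59381 without untreated replicate 2.

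With the replicate block, limma called 1 member region for rank with TWEAK in SKBR3, S100A8 (11.39 points, SE 1.92, adjusted p = 0.00226), and 1245 of 30481 regions against 0 without it. The deviations of same-numbered libraries correlated at 0.33 in SKBR3 and -0.038 in MDA-MB-453, with 2 pairs in each, so the number is not known to pair them. With log2 fold enrichment in place of rank, 203 regions were called in SKBR3, none of them a member.

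Among 600 values of single regions, 594 kept their side of the threshold, 2 lost the call and 4 gained it. No value that was called in either fit reversed. A change of direction between uncalled fits was not counted. Peak lists hold no signal below the calling threshold, which limits what absence at S100A6, S100A4 and S100A7 in MDA-MB-453 can show. Depth is unknown.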
